A study of Mus musculus with 2 samples.

Results

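Cells labelled monocytes were selected from a mouse bone marrow macrophage culture on their levels of Vcan and F13a1. Of 23101 kept cells, 1737 (7.52%) met the rule. Levels were expressed as p10k, the UMIs (unique molecular identifiers, each standing for 1 captured transcript) of a gene per 10000 UMIs of the cell. Kept cells had 500 or more detected genes, 1000 or more UMIs and no more than 10% of UMIs from mitochondrial genes. A cell was then chosen by a summed Vcan and F13a1 level of 5 p10k or more. It also had to stay under 10 p10k of Retnlg, 50 p10k of Camp, Ngp and Ltf together, 40 p10k of Mpo, Elane, Prtn3 and Ctsg together, and 10 p10k of C1qa, C1qb and C1qc together. These limits set aside neutrophils, granulocyte precursors, myeloid progenitors and C1q-expressing macrophages. Since measured values of these genes chose the cells, their levels and every contrast of the selected cells with other cells are given as description only.

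The study compared bone marrow derived macrophages of 129Sv mice with and without a truncated form of Tamm-Horsfall protein (THP). This glycoprotein of the kidney, known too as uromodulin, in its full form polymerises into filaments, and the form used here is non-polymerizing. Marrow cells of both groups were grown with 10% fetal bovine serum and 50 ng/ml M-CSF, the growth factor that turns marrow cells into macrophages, with medium added on day 3 and partly replaced on day 6. On day 7 they received 1 ug/ml THP or the 5% dextrose vehicle for 18 h, were lifted with TrypLE, depleted of dead cells and loaded on the 10x Chromium platform. There was 1 library per treatment, neither the number of mice nor any pooling is given in the sources used here, and no difference between the libraries has a replicate check. No test was therefore possible, and all intervals below are exact 95% intervals that cover counting error only.

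Classical monocytes leave the marrow under the control of the chemokine receptor Ccr2, carry the surface protein Ly6C encoded by Ly6c2, and enter inflamed tissue, where they can become macrophages. Versican, the product of Vcan, is a large chondroitin sulfate proteoglycan that binds hyaluronan in the pericellular matrix. F13a1 encodes the catalytic A subunit of coagulation factor XIII, a transglutaminase that crosslinks fibrin, and is expressed by monocytes and some macrophages. In culture with M-CSF, marrow monocytes and their precursors are the source of the adherent macrophages.

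The THP library held 697 selected cells among 12123 kept (5.75%, interval 5.34 to 6.18), and the vehicle library 1040 among 10978 (9.47%, interval 8.93 to 10.0). The share was thus lower in the THP library by more than counting error, with no measure of how much 2 cultures of the same treatment would differ. The marker sum of a cell near the limit is less certain at low depth, in either direction. The selected THP cells had a median of 15486 UMIs against 19283.5 in vehicle. With cells under 5000 UMIs left out and the others thinned to 5000 UMIs, the shares were 6.38% and 11.2%. Of the kept cells, 10165 in THP and 9012 in vehicle had 5000 UMIs or more, so these shares refer to fewer cells. A total of 11384335 UMIs from selected THP cells and 21294405 from selected vehicle cells stand behind the levels below, so that a gene at 10 UMIs per 1000000 UMIs (CPM) rests on over 100 UMIs. The libraries shared 42 cell barcodes, of which 38 were kept in both and 1 was selected in both.

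Of 895 THP and 1406 vehicle cells at or over 5 p10k of the marker sum, the Mpo group limit removed 121 and 266, the C1q limit 60 and 55, the Retnlg limit 11 and 27, and the Camp group limit 9 and 36. Some cells, 3 in THP and 18 in vehicle, exceeded more than 1 of these limits. The marker sum was continuous across the limit. Just inside it, from 5 to 6 p10k, lay 142 THP cells with a median of 5.42 p10k and 107 vehicle cells with a median of 5.49 p10k. Just outside it, from 4 to 5 p10k, lay 140 THP cells with a median of 4.54 p10k and 156 vehicle cells with a median of 4.43 p10k. The selected cells are therefore a range of this level and not a class with an edge, and 36 THP and 29 vehicle cells were selected on fewer than 3 marker UMIs.

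Within that range the THP cells sat nearer the limit. The marker sum had a median of 8.35 p10k in THP and 11.7 p10k in vehicle, and its 95th percentile was 20.9 and 31.6 p10k. Cells at 20 p10k or more made up 6.46% of the selected THP cells (45 cells, interval 4.75 to 8.54) and 20.9% of the selected vehicle cells (217 cells, interval 18.4 to 23.5). Cells from 5 to under 10 p10k made up 65.6% and 40.1%. Since the libraries differ in this make-up, results were also computed within each of 3 ranges (5 to under 10, 10 to under 20, and 20 p10k or more).

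**Figure D1:**
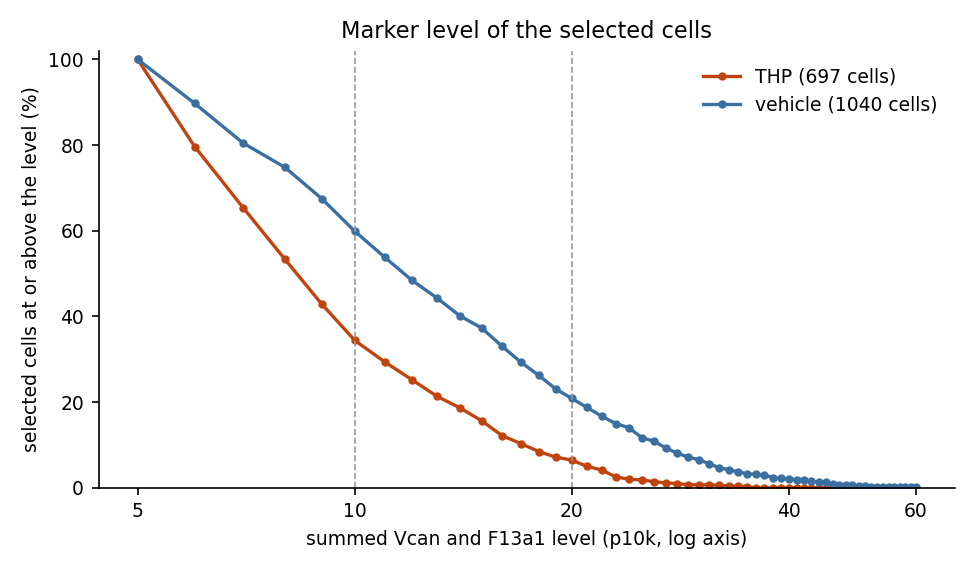
Percentage of the selected cells (vertical axis) at or above each summed Vcan and F13a1 level (horizontal axis, p10k, log scale), at whole-number levels from 5 to 60 p10k, for the THP and vehicle libraries, with dashed lines at the range limits of 10 and 20 p10k. The THP curve lies under the vehicle curve at both dashed lines, with 6.46% against 20.9% of cells at 20 p10k or more.

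Vcan (chr13:89655312-89742509, minus strand, mm10) reached 260.0 CPM in the selected THP cells and 404.5 CPM in the selected vehicle cells. F13a1 (chr13:36867178-37050244, minus strand) reached 722.8 and 990.7 CPM. Both genes gave at least 1 UMI in 478 THP cells (68.6%) and 767 vehicle cells (73.8%), F13a1 alone in 211 (30.3%) and 269 (25.9%), and Vcan alone in 8 and 4. F13a1 thus carried most of the selection, and cells with Vcan but no F13a1 were rare. Within a range the libraries differed less. From 5 to under 10 p10k, Vcan stood at 148.8 CPM in THP and 129.4 in vehicle, and F13a1 at 555.1 and 602.5.

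The genes named as further markers but not used in the rule were present. Itga1 (chr13:114953096-115101964, minus strand), the alpha chain of a collagen-binding integrin, stood at 138.5 CPM in THP (131.8 to 145.5) and 186.0 CPM in vehicle (180.3 to 191.9). All other kept cells of the 2 libraries had 21.4 and 44.3 CPM of it. Ly6c2 stood at 1216 and 1074 CPM, against 494.3 and 740.6 in all other kept cells, and Ccr2 at 309.9 and 442.3 CPM, against 97.6 and 193.8. Ly6c2 was higher still in cells over the Mpo group limit, the progenitors, at 2568 and 2611 CPM, so it does not mark the selected cells alone. Ly6c2 and its close copy Ly6c1 can share reads, which makes its level uncertain.

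Cell by cell, these markers were uneven. Ly6c2 had a median of 11.6 p10k in the THP cells and 10.8 in the vehicle cells, yet its 10th percentile was 0 and 0.54 p10k. After thinning each cell to 5000 UMIs, which left out 52 THP and 49 vehicle cells, Itga1 gave a UMI in 43.0% of selected THP cells (unthinned 64.0%) and 48.6% of selected vehicle cells (unthinned 73.3%). The same thinned share was 1.61% and 2.51% in cells over the C1q limit, whose median depths were 20808 and 21945 UMIs, and 22.3% and 27.7% in cells over the Mpo group limit. Ly6c2 gave a UMI in 87.6% and 86.6% of selected cells after thinning (unthinned 88.7% and 92.4%), against 14.3% and 18.1% of cells over the C1q limit, 97.9% and 98.7% over the Mpo group limit and 86.3% and 86.6% over the Retnlg limit. The share was thus low in C1q cells, close to that of the selected cells in neutrophils and higher in progenitors. Ccr2 gave 65.1% and 73.5% (unthinned 80.2% and 87.5%), against 16.4% and 21.9% of cells over the C1q limit. Its share was 31.7% and 37.7% over the Mpo group limit, and 31.2% and 45.6% in cells under the marker limit that met the other limits.

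Beyond the rule's own genes, 10 genes had the highest level relative to all other kept cells in both libraries. Itga1 led in THP, at 2.64 above the other cells on the log2 scale of CPM + 1 (2.05 in vehicle). It was followed by Nt5e (2.18 and 1.84), the surface nucleotidase CD73, and Il1r2 (2.16 and 2.08), a decoy receptor that binds interleukin-1 without signalling. Gpr141, an orphan receptor, stood at 233.1 CPM in THP and 309.4 in vehicle, and Ifitm6 and Ifitm1, of the interferon-induced transmembrane family, at 326.2 and 347.3 CPM and at 767.3 and 855.8 CPM. The others were Plcb1, a phospholipase C, C1galt1c1, a chaperone of O-glycosylation, Penk, the enkephalin precursor, and St14, a membrane serine protease. Nt5e and Ifitm6 were higher still in cells over the Retnlg limit, the neutrophils, where Ifitm6 reached 672.6 and 708.7 CPM, and Il1r2 was so in THP only (49.3 CPM there, against 33.3 CPM in the selected cells).

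**Figure D2:**
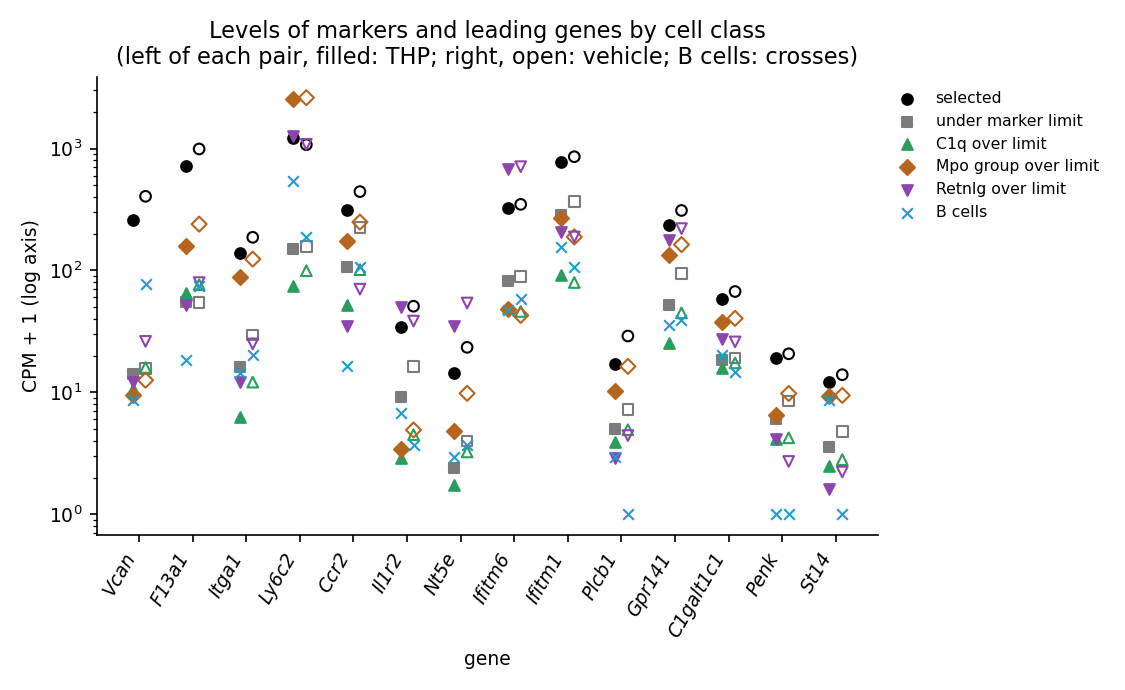
Level (CPM + 1, log axis) of Vcan, F13a1, the further markers and the genes highest in the selected cells, in the selected cells and 5 other classes, the last being cells with 5 p10k or more of the B cell receptor genes Cd79a and Cd79b. Filled symbols are THP and open symbols vehicle. The selected cells (black) are highest for Itga1, with 138.5 and 186.0 CPM, whereas Ly6c2 is higher in cells over the Mpo group limit.

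The label of classical monocytes was set beside lists of cell type markers. All 17 listed classical monocyte genes were at 10 CPM or more, but so were all 17 in cells under the marker limit and in B cells. This count therefore does not set the selected cells apart. The list summed to 30562 CPM in THP and 25652 in vehicle, against 39457 and 36104 over the Retnlg limit and 23013 and 18567 under the marker limit. It included Lyz2, lysozyme, at 19115 CPM in THP and 15850 in vehicle, Plac8 at 450.4 and 418.4, and Ms4a6c at 426.4 and 420.2. Chil3, a chitinase-like protein, was at 2440 and 2396, and higher still over the Mpo group limit (8047 and 7782). Of 9 nonclassical monocyte genes, 5 were at 10 CPM or more, and their regulator Nr4a1 stood at 2.37 and 1.46 CPM. The 10 dendritic cell genes summed to 25.7 and 31.3 CPM. One of them was at 10 CPM or more, the integrin chain Itgax, also carried by macrophages, at 14.1 and 14.98 CPM. Flt3, the receptor of dendritic cell precursors, had 0 UMIs in THP (at most 0.32 CPM) and 0.19 CPM in vehicle.

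The cells also carried macrophage transcripts and RNA of proliferation and progenitor genes. Of 16 mature macrophage genes, 13 were at 10 CPM or more. The same held for 13 over the Retnlg limit, 12 over the Mpo group limit and 16 in B cells. This count therefore does not set the selected cells apart. The list summed to 2652 and 2516 CPM, against 4717 and 4101 in all other kept cells and 888.1 and 528.6 over the Mpo group limit. Its members included Pf4, platelet factor 4, at 1140 CPM in THP and 829.5 in vehicle. Adgre1, which encodes F4/80, was at 211.3 and 178.9, and Trem2 at 202.1 and 196.9. Mertk, a receptor for apoptotic cells, was at 3.87 and 3.57 CPM. Mki67, a marker of cells in cycle, gave a UMI in 52.4% of THP and 70.6% of vehicle cells after thinning (unthinned 65.7% and 80.4%). Other classes of the culture had such shares too, with 52.1% and 62.6% over the C1q limit and 55.5% and 75.9% over the Mpo group limit. It was 30.8% and 40.1% of the few neutrophils deep enough to thin, 146 and 142 cells over the Retnlg limit (unthinned 10.9% and 11.9%). The 21 G2 and mitosis genes summed to 5760 and 6361 CPM, against 5178 and 5719 over the Mpo group limit. All other kept cells had 4089 and 4927 CPM. Prtn3, which the rule limited, had a UMI in 437 of 697 THP and 766 of 1040 vehicle cells. The 8 myeloid progenitor genes summed to 642.3 and 748.3 CPM, against 176.3 and 246.0 under the marker limit. Cells over the Mpo group limit had 21347 and 22959 CPM. Whether the selected cells are cycling precursors was not tested.

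Part of the cells had high levels of S100a8 and S100a9. S100a9, a calcium-binding protein abundant in neutrophils, averaged 4137 CPM in THP and 3538 CPM in vehicle, but its median per THP cell was 4.66 p10k and its 90th percentile 189.2 p10k. A level of 100 p10k or more of S100a8 and S100a9 together was reached by 151 THP cells (21.7%, interval 18.7 to 24.9) and 194 vehicle cells (18.7%, interval 16.3 to 21.2). Ly6g, which defines neutrophils, stood at 0.18 CPM and 0.05 CPM. No doublets were removed, and whether these cells are doublets, hold free RNA or express the genes was not tested.

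Other lineages were rare. A level of 5 p10k or more of any list for mast cells or basophils, B cells, T or NK cells, stromal cells or erythroid cells, or of Jchain, was found in 18 cells of each library. The mast cell or basophil list reached it in 9 THP and 11 vehicle cells and the T or NK list in 7 and 2. The B cell list reached it in 1 and 4, the stromal list in 3 and 0, and the erythroid list in 2 and 0, while Jchain alone did so in 0 and 3. Over all selected cells the T cell gene Cd3e had 4 and 1 UMIs and the B cell gene Ms4a1 had 3 and 7. Genes of basophils and plasma cells were not near 0, since a few cells held many UMIs of them. The basophil proteases Prss34 and Mcpt8 had 479 and 429 UMIs in THP (42.1 and 37.7 CPM) and 22 and 24 in vehicle. The immunoglobulin chain genes Igkc and Jchain had 9487 and 248 UMIs in vehicle (445.5 and 11.7 CPM) and 433 and 19 in THP. In the higher library 5 cells gave 92.7% or more of the UMIs of each of these 4 genes.

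Cells with F13a1 alone differed from cells with both genes in more than Vcan. Mrc1, the mannose receptor of mature macrophages, stood at 186.0 CPM in THP and 278.0 in vehicle where only F13a1 was seen, against 29.2 and 32.6 CPM where both were. A Mrc1 level of 2 p10k or more was found in 42 of 211 and 66 of 269 cells with F13a1 alone, and in 14 of 486 and 25 of 771 cells with Vcan. S100a9 stood at 7829 and 7746 CPM with F13a1 alone and at 3067 and 2399 CPM with both. Itga1 ran the other way, at 86.7 and 144.7 CPM with F13a1 alone and 155.8 and 197.8 CPM with both, as did Ly6c2, at 958.6 and 879.8 against 1308 and 1129 CPM. A Ly6c2 level of 5 p10k or more was reached by 51.2% and 56.5% of cells with F13a1 alone, and by 86.6% and 80.3% of cells with Vcan.

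The summed mature macrophage list was 5235 CPM in THP and 4939 CPM in vehicle with F13a1 alone, and 1880 and 1861 CPM with both genes. The summed neutrophil list was 13383 and 13493 CPM against 6022 and 4958 CPM. Depth moved with this split: the median was 11351 and 16410 UMIs with F13a1 alone and 16346.5 and 20114 UMIs with both, and its part in the split was not tested. The summed classical monocyte list moved little between the same cells, from 29483 and 24783 CPM to 30936 and 25912 CPM. However, Lyz2 made up 18427 and 14679 CPM of it with F13a1 alone, and its members did not move together. Ccr2 was 238.0 and 379.7 CPM with F13a1 alone and 333.8 and 459.6 CPM with both genes. Klf4 was 39.3 and 27.1 against 59.9 and 42.1 CPM, whereas Chil3 in vehicle was higher with F13a1 alone (2953 against 2253 CPM). F13a1 alone thus took in cells with higher summed levels of the macrophage and neutrophil lists, in both libraries alike.

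Along the marker range the same genes ordered the cells. Ly6c2 was 1097, 1432 and 1560 CPM in THP and 804.5, 1185 and 1433 CPM in vehicle from the lowest to the highest range, and Itga1 was 120.8, 158.1 and 244.0 CPM in THP. Klf4, a transcription factor needed for monocyte formation, was 49.7, 64.1 and 94.5 CPM in THP and 30.7, 42.1 and 49.8 CPM in vehicle. Hp, which encodes the haemoglobin scavenger haptoglobin, was 266.7, 347.1 and 551.4 CPM in THP and 111.2, 151.2 and 172.8 CPM in vehicle. Mrc1 ran downwards, at 80.0, 40.0 and 14.1 CPM in THP and 153.8, 47.3 and 11.5 CPM in vehicle. So did H2-Aa, an MHC class II chain, at 92.8, 58.2 and 9.87 CPM in THP and 103.7, 93.6 and 39.3 CPM in vehicle. These orders are the same in both libraries. They describe how levels go with the selecting genes, and the highest THP range holds 45 cells.

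**Figure D3:**
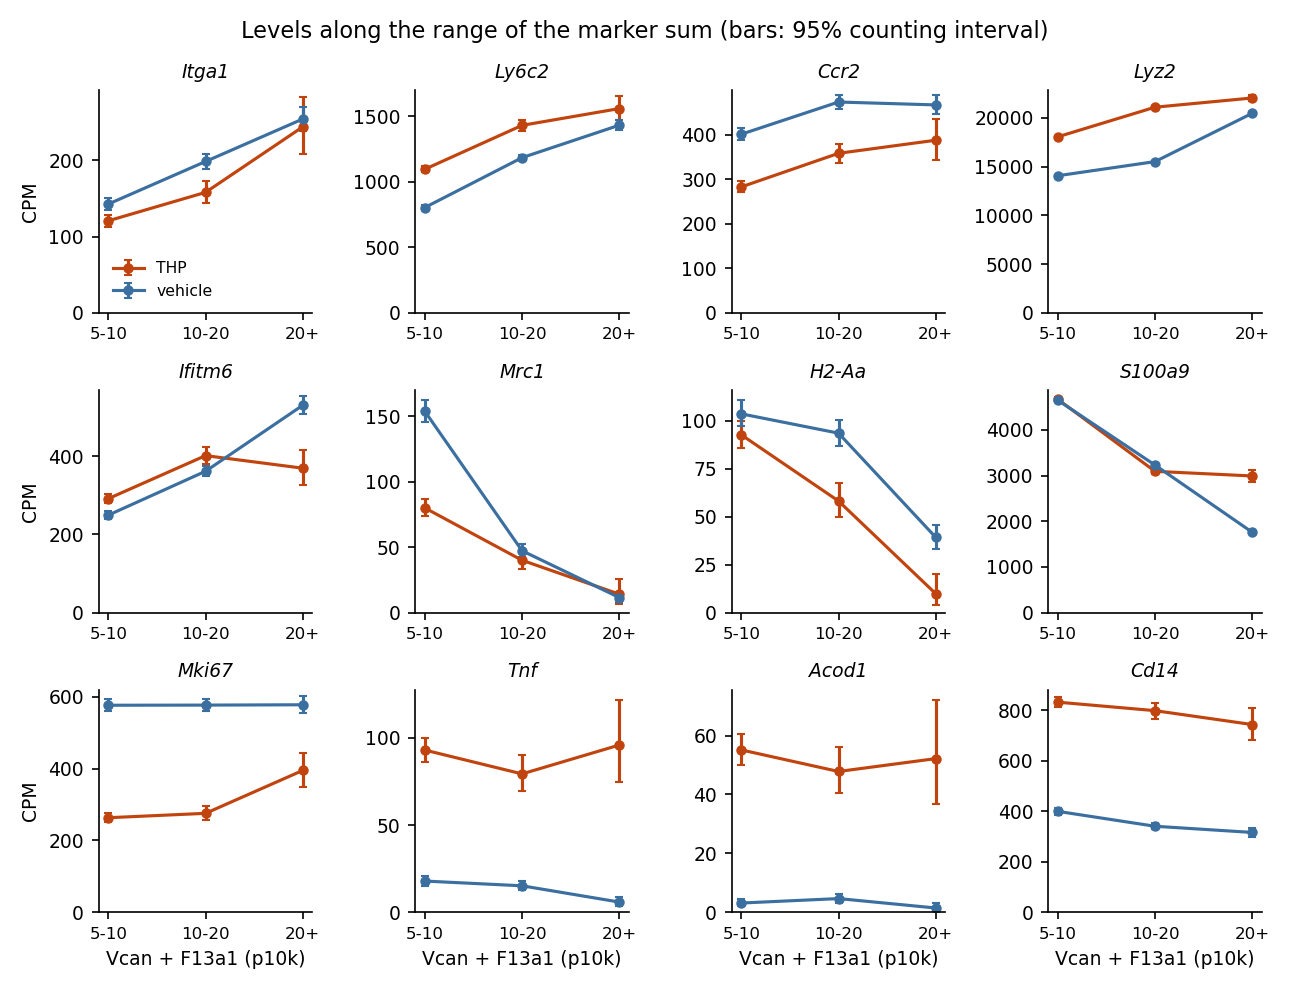
Level in CPM (vertical axes, from 0) of 12 genes in 3 ranges of the summed Vcan and F13a1 level (horizontal axes, p10k), for THP and vehicle, with exact 95% counting intervals as bars. Itga1 and Ly6c2 are higher and Mrc1 and H2-Aa lower towards the top range in both libraries, while Tnf and Acod1 are higher in THP than in vehicle in each range.

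THP and vehicle were then compared within the selected cells. A gene was called at 10 CPM or more in at least 1 library and a 2-fold difference on the CPM + 1 scale, and 7820 genes reached that level. A gene at that level in 1 library only entered through the library where it was higher, which favours a call in that direction. With this size rule 86 genes were higher in THP (1.10% of those tested) and 198 were lower (2.53%). The higher set held 11 listed cytokines and chemokines and 18 listed NF-kB targets. The lower set held 13 histone genes, 2 S phase genes and 2 mitotic genes. The log2 ratio of THP over vehicle had a median of -0.16 over all genes, and its central 95% ran from -1.003 to 0.58. With TMM factors that bring the median to 0.01, 114 genes were higher and 81 lower, so that 58.5% of calls were higher against 30.3% without them. All 86 higher genes were called with these factors too. With ratios corrected for transcript length, 116 were higher and 43 lower.

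Called within 1 range at a time, 76 genes were higher and 289 lower from 5 to under 10 p10k, 90 and 266 from 10 to under 20, and 194 and 424 at 20 p10k or more. The top range holds only 45 THP cells, in which H2-Aa at 9.87 CPM rested on 7 UMIs. Its larger counts of calls can therefore not be read as a larger difference between the libraries. The direction was the same in all 3 ranges for 85 genes of the 86 called higher over all selected cells and 193 of the 198 called lower, which is a description only, since the ranges hold the cells that gave the calls. The 5 cells with most UMIs of a gene gave over 50% of its UMIs for 7 higher and 4 lower genes. These were Cxcl10, Id3, Ifit1, Mcpt8, Prg2, Prss34 and Timp1, and Ighm, Igkc, Jchain and Ltf. They include the 2 highest ratios of all, those of the basophil proteases Prss34 (4.41) and Mcpt8 (4.18), with 94.99% and 94.6% of UMIs from 5 cells. Without the 18 cells of each library with RNA of other lineages, 84 genes were higher and 196 lower, and the ratio of Mcpt8 was -0.12. Without the cells at 100 p10k or more of S100a8 and S100a9, 86 were higher and 214 lower.

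**Figure D4:**
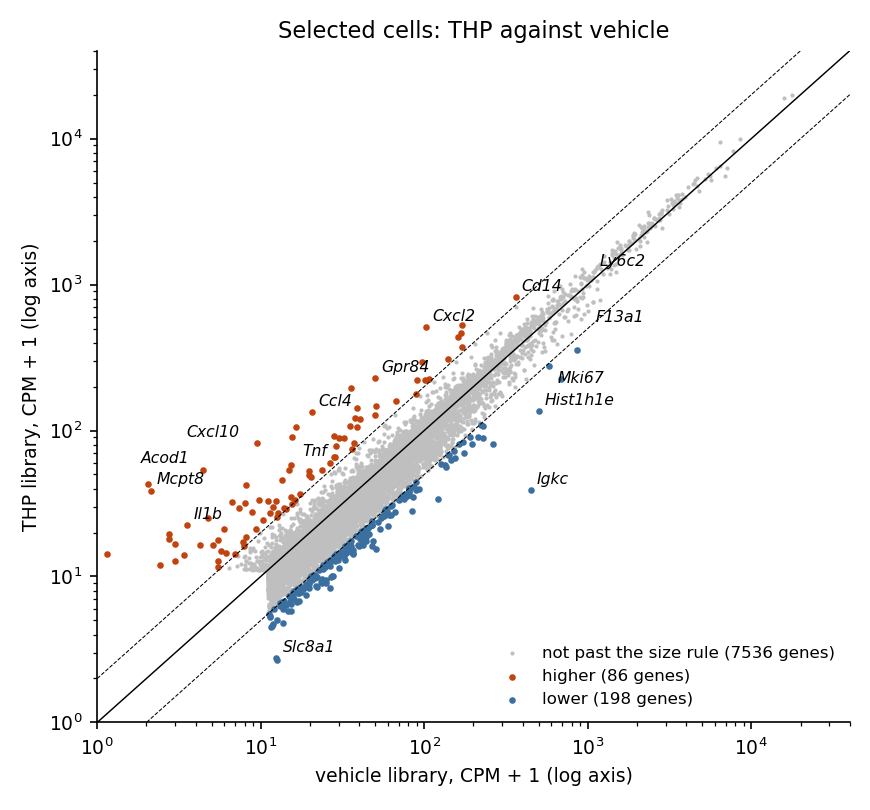
Level of 7820 genes in the selected cells of the vehicle library (horizontal axis) and the THP library (vertical axis), both CPM + 1 on log axes, with the line of equality and dashed lines at 2-fold. The 86 higher genes include Acod1, Tnf, Ccl4 and Cxcl2, the 198 lower genes include Hist1h1e, Mki67 and Slc8a1, and F13a1 and Ly6c2 lie between the dashed lines.

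Most secreted cytokines and chemokines that reached the tested level were higher in THP. Of 23 listed genes 15 reached 10 CPM, of which 11 were higher and none lower, and their median log2 ratio was 1.96, or 2.12 above that of all genes (with equal weight per cell, 1.48). Il1b, Cxcl1 and Cxcl10 reached 10 CPM in THP only, so the filter itself favoured a higher ratio for such genes. Tnf, the cytokine tumour necrosis factor, was 89.5 CPM in THP (84.1 to 95.2) and 14.6 CPM in vehicle (12.98 to 16.3), a log2 ratio of 2.54. Its ratio was 2.31, 2.31 and 3.81 in the 3 ranges from low to high. After thinning, 29.6% of THP cells and 6.16% of vehicle cells had a Tnf UMI (unthinned 50.8% and 19.4%). The same thinned share was 12.5% of 32 THP cells with the B cell receptor genes Cd79a and Cd79b (118 before thinning, with a median of 2481 UMIs) and 0 of 20 in vehicle.

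The chemokines that draw neutrophils were higher in THP. Cxcl2 was 511.1 CPM (498.1 to 524.4) in THP and 101.8 CPM (97.6 to 106.2) in vehicle, with a ratio of 2.32, and Cxcl1 was 18.5 against 1.74 CPM, a ratio of 2.83. Ccl3 and Ccl4, chemokines that draw monocytes and lymphocytes, were 193.2 against 34.6 CPM and 132.9 against 19.6 CPM, with ratios of 2.45 and 2.70. Of the listed genes 4 did not reach 2-fold. They were Ccl2, a ligand of Ccr2, at 692.0 and 464.0 CPM (0.58), the chemokines Ccl9, at 601.5 and 492.1 CPM (0.29), and Ccl6, at 129.2 and 145.8 CPM (-0.17), and Csf1, which encodes M-CSF, at 14.4 and 23.95 CPM (-0.70). Ccl7 (1.57) and Ccl12 (1.96), relatives of Ccl2, did. Il1b, the interleukin-1 beta precursor, was low in both libraries at 21.5 and 2.54 CPM, a ratio of 2.67. Il6 stayed at 1.41 and 0.33 CPM, and Il12b had no UMI in either library (at most 0.32 and 0.17 CPM).

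Cxcl10, a chemokine for T cells, was 81.0 CPM against 8.45 CPM, a log2 ratio of 3.12, but 5 cells gave 55.4% of its THP UMIs. Cxcl10 and Cxcl1, both among the 10 highest genes, held a match to the NF-kB consensus motif, a sequence of 10 bases searched on both strands, in the 250 bases upstream of their RefSeq start. These genes were chosen by their ratios in these data, and whether the motif is used was not tested. The windows are shown as description, with the matched bases in capitals.
Cxcl10: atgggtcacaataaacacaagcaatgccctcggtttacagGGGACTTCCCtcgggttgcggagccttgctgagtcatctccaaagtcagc
Cxcl1: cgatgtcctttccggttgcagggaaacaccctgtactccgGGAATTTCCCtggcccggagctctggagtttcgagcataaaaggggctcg
The first lies at chr5:92348943-92349032 on the minus strand, the second at chr5:90891135-90891224 on the plus strand (GRCm38.p6, RefSeq, written 5′ to 3′ in the direction of the gene). The matches end 93 and 60 bases before the start site. Of the 10 highest genes 9 were in the RefSeq table, and 2 of these 9 had a match, as did 335 of 6246 genes tested (5.36%) and 1281 of all 32851 promoter windows (3.90%). Acod1, Saa3, Il1b, Tnf, Bcl2a1a, Prss34 and Mcpt8 had none in this window, and 0 of 3 matched genes among the 10 lowest had one.

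Targets and feedback regulators of NF-kB, the transcription factor that toll-like receptors and tumour necrosis factor activate, were mostly higher too. Of 25 listed genes 23 reached 10 CPM, 18 were higher and none lower, and the median ratio was 1.44 (with equal weight per cell, 1.501). Here too some genes, such as Acod1, Traf1, Nfkbiz and Tnfaip3, reached 10 CPM in THP only. Acod1 (chr14:103046977-103056573, plus strand), the enzyme that makes the immunometabolite itaconate, was 53.0 CPM (48.8 to 57.4) in THP and 3.43 CPM (2.69 to 4.31) in vehicle, a ratio of 3.61. Saa3, an acute phase protein, was 105.5 against 15.4 CPM, and Gpr84, a receptor for medium-chain fatty acids, 227.6 against 49.3 CPM, with ratios of 2.70 and 2.19. Gpr84 was broad: 64.0% of THP and 21.4% of vehicle cells had a UMI of it after thinning (unthinned 86.2% and 49.4%), against 21.9% and 5.00% of these B cells.

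The inhibitors that end NF-kB signalling were higher as well. Nfkbia, which encodes the inhibitor IkB-alpha, was 294.4 CPM against 96.3 CPM (ratio 1.603), and Tnfaip3, the ubiquitin-editing enzyme A20, 13.97 against 4.70 CPM (1.39). Traf1, an adaptor of tumour necrosis factor receptors, had a ratio of 2.41, Sod2, the mitochondrial superoxide dismutase, 1.64, and Ier3 1.63. The subunits of NF-kB itself split, with Nfkb2 at 1.44 and Relb at 1.34 past 2-fold, and Nfkb1 at 0.44 and Rel at -0.14 not. Bcl2a1a, a survival gene with near-identical copies among which reads may be divided, was 17.0 against 1.74 CPM (2.72).

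The same ratios stood beside those of other cells. Tnf had 2.54 in the selected cells, 2.47 in cells under the marker limit that met the other limits and 2.48 in cells over the C1q limit. For Acod1 these were 3.61, 3.52 and 3.90. By thinned shares of Tnf the selected THP cells, at 29.6%, came between THP cells over the C1q limit (44.7%) and over the Mpo group limit (11.6%). The order differed by gene, since Gpr84 gave 64.0%, 61.6% and 40.2% in the selected, C1q and Mpo group cells of THP. No difference between these classes was tested, since each has 1 library per treatment. Klf4 differed more among the classes, with 56.4 against 38.8 CPM (0.53) in the selected cells, -0.89 in cells under the marker limit, -1.05 over the C1q limit, 0.14 over the Mpo group limit and -0.01 over the Retnlg limit, though its ratio in the selected cells did not reach 2-fold.

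Pattern recognition receptors gave calls in both directions, 1 of which was lost with another scaling. Of 11 genes at 10 CPM or more of the lipopolysaccharide receptor list, which holds the toll-like receptor 4 complex and its adaptors, 2 were higher and 1 lower, with a median of 0.40. Cd14, the co-receptor, was 817.2 CPM (800.7 to 834.0) in THP and 360.6 CPM (352.5 to 368.7) in vehicle, a ratio of 1.18. Tlr2 was 119.9 against 36.6 CPM (1.68). Tlr4 was lower, at 6.85 CPM (5.42 to 8.55) against 16.7 CPM (15.03 to 18.6), a ratio of -1.17, but with ratios corrected for transcript length it was at -0.93 and no longer called. Tlr8, an endosomal receptor for RNA, was 3.78 against 12.7 CPM (-1.52). Ly96, which encodes MD-2, and Myd88 had ratios of 0.40 and 0.55.

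Interferon-stimulated genes did not share this pattern. Of 16 at 10 CPM or more, only Ifit1 was called (16.7 against 4.51 CPM, with 53.2% of its THP UMIs in 5 cells and a ratio of 0.85 at 10 p10k or more of the markers), and the median was -0.02. Isg15, a ubiquitin-like protein, was 52.4 and 29.3 CPM (0.82), and Irf7 had 0.71. The list split evenly, with 8 above and 8 below 0.

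Coagulation and matrix genes, the functions of F13a1 and Vcan, were counted without those 2 genes, which chose the cells. Of 7 other coagulation and plasminogen genes at 10 CPM or more, none was called, and the median was 0.17. Plaur, the urokinase receptor, had 0.52, F10, coagulation factor X, 0.26, and Thbs1, thrombospondin 1, -0.51. Of 10 other proteoglycan and matrix genes 2 were higher, with a median of 0.08. Sdc4, the heparan sulfate proteoglycan syndecan 4, was 141.4 CPM against 38.0 CPM (1.87). The other, Timp1, an inhibitor of metalloproteinases, had 87.7% of its THP UMIs in 5 cells, and its ratio was 0.49 without the cells with RNA of other lineages. Cd44, the hyaluronan receptor, was 182.4 and 174.8 CPM (0.06).

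Receptors for migration and adhesion gave 3 higher and 1 lower gene of 21, with a median of -0.29. The formyl peptide receptors, which sense bacterial peptides, were both higher, Fpr1 at 41.1 against 7.09 CPM (2.38) and Fpr2 at 119.4 against 39.5 CPM (1.57). Icam1, a ligand of leukocyte integrins, was 90.04 against 27.0 CPM (1.70). Ccr2 (-0.51), Ccr1 (-0.70) and Itgb1 (-0.74) were below 0 without reaching 2-fold. Cx3cr1, the fractalkine receptor of nonclassical monocytes, was 142.5 and 83.8 CPM (0.76).

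Among monocyte genes and regulators, 2 of 17 classical monocyte genes were called, Cd14 and Hp, and Hp was 306.1 CPM against 138.7 CPM (1.14). Of 16 transcription factors at 10 CPM or more, Cebpd was higher (371.7 against 169.5 CPM, 1.13), while Cebpb, an activator of inflammatory genes in myeloid cells, was 699.7 against 363.8 CPM (0.94). Spi1, which encodes PU.1, had 0.45, Irf8 0.18, and Cebpa -0.82. Pou2f2, on the nonclassical monocyte list, was 220.2 against 89.5 CPM (1.29). Clec4e, the C-type lectin Mincle, was the called gene of 11 phagocytic receptors (436.6 against 160.0 CPM, 1.44).

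No gene of MHC class II presentation (7 tested, median -0.17) or the lysosome (19 tested, -0.08) was called, nor any immediate early gene (13 tested, 0.25), a group that dissociation of cells can induce. One of 19 glycolysis genes was higher, the glucose transporter Slc2a1 (74.1 against 35.0 CPM, 1.06), and 1 of 5 alternative activation genes, the transglutaminase Tgm2 (10.5 against 4.51 CPM, 1.07). Tgm2 was at 0.93 without cells with neutrophil RNA and Slc2a1 at 0.96 with 3 p10k or more of the markers, both short of 2-fold. With 1 call or none in lists this small, these counts, like that of the coagulation list, say nothing about the lists.

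Of 20 S phase genes 2 were called lower and 18 did not reach 2-fold. Those called were Cdc6, which loads the replicative helicase (9.05 against 26.5 CPM, -1.45), and Dtl (11.9 against 31.8 CPM, -1.34). After correction for length Cdc6 alone was called (-1.11), and Dtl lay just short of 2-fold. All 20 had a ratio below 0, with a median of -0.62, and 19 of 20 did with TMM factors and 18 of 20 after correction for length, where the median was -0.35. The helicase subunit Mcm4 was 48.1 against 93.9 CPM (-0.95), and Tyms, thymidylate synthase, 198.1 against 202.2 CPM (-0.03). Mitotic genes were mixed: of 21, Mki67 (274.8 against 576.7 CPM, -1.07) and Kif11, a spindle motor (67.1 against 139.8 CPM, -1.05), were called with library totals but not with TMM factors or after correction for length. Ube2c (0.31), Birc5 (0.25) and Ccnb1 (0.15) were above 0.

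Histone genes, a family chosen after its values were seen, were lower in 13 of 22 tested and higher in none. With TMM factors 10 were lower. Hist1h1e, a linker histone, was 135.2 CPM (128.5 to 142.1) in THP and 500.3 CPM (490.8 to 509.9) in vehicle, or -1.88 in log2, and Hist1h1b 225.4 against 680.7 CPM (-1.59). Transcripts of replication-dependent histones mostly lack a poly(A) tail, the libraries capture poly(A) transcripts, and the copies are similar enough for reads to be divided among them.

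The strongest lower ratio with one direction in all ranges was that of Slc8a1, a sodium and calcium exchanger, at 1.76 CPM (1.07 to 2.71) against 11.5 CPM (10.1 to 12.99), or -2.18. Jaml, a junctional adhesion protein of leukocytes, was 14.3 against 49.7 CPM (-1.73). Of progenitor genes, Cd34 was 15.5 against 41.2 CPM (-1.36) and Myb 10.6 against 23.9 CPM (-1.10), while Mpo and Elane, which the rule limited, were not called. The ratios of Slc8a1 and Hist1h1e had the same direction in cells under the marker limit (-2.15 and -1.78) and over the C1q limit (-2.37 and -1.77).

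**Figure D5:**
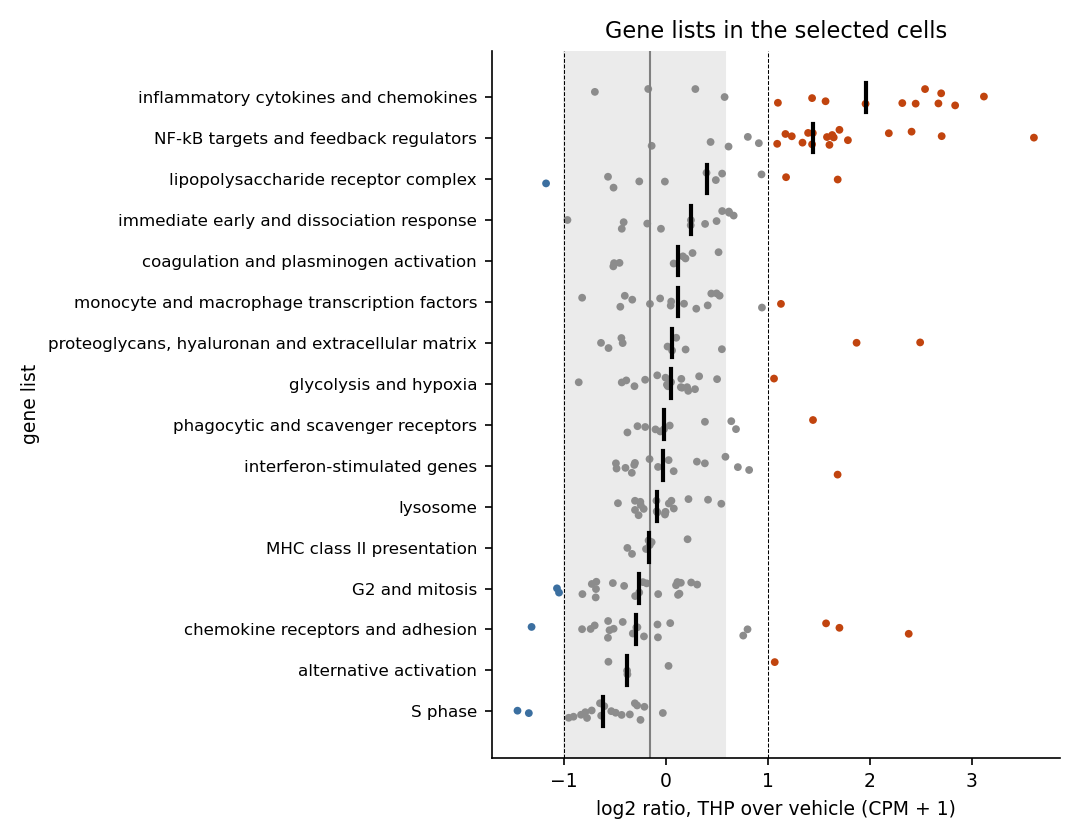
Log2 ratio of THP over vehicle (horizontal axis, CPM + 1) of each gene at 10 CPM or more in 16 gene lists (rows), with called genes coloured, the median of each list as a black bar (F13a1 and Vcan, which chose the cells, are drawn and counted in their lists), the median of all genes (-0.16) as a grey line and their central 95% (-1.003 to 0.58) shaded. The medians of the cytokine list (1.96) and the NF-kB list (1.44) lie right of the shaded range, and that of the S phase list (-0.62) is the lowest. Some genes of the cytokine and NF-kB lists reached 10 CPM in THP only.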

How the data were processed

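The deposited values are UMI counts per gene and cell barcode, 1 matrix per library, written by software version 3.1.0 per the file headers. The submitters' processing notes name Cell Ranger, bcl2fastq, STAR and mm10, and no versions of these are given in the sources used here. The authors' counts cover 31053 gene identifiers, of which 31011 had coordinates in the annotation used. Barcodes numbered 13193 (THP) and 11584 (vehicle), of which 12123 and 10978 passed the cell filter.

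Selected cells' UMIs were summed per library and divided by their total (CPM), with Python 3.11.15, numpy 2.4.6, scipy 1.17.1 and pandas 2.3.3. Intervals are exact Poisson for CPM and Clopper-Pearson for shares, at 95%. Scaling factors (TMM, RLE) came from edgeR 4.0.16, used for nothing else. The script was tested on simulated data. No doublet caller was run and no doublets were removed. An alternative dropped the 5% of kept cells with most UMIs.

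The members, gene lists and marker lists were chosen with earlier results of these data known. Named genes are the selection and marker genes, the 10 highest and 10 lowest called ratios with one direction in all 3 ranges, up to 5 genes per list with the largest ratio, and the 10 genes highest against other kept cells. Some further members of the lists are named for their role, and Hist1h1e and other histone genes also as a family chosen after its values were seen. In all, 17 alternatives were tried.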

Additional observations from a re-analysis of the deposited data

Results flagged for a closer look

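Barcodes that failed the cell filter but met the marker limits were used in no comparison. They made up 9.72% of barcodes meeting the marker limits in the THP library (75 of 772, interval 7.72 to 12.0) and 3.79% in the vehicle library (41 of 1081, interval 2.74 to 5.11). Of these, 68 THP and 37 vehicle barcodes were over the mitochondrial limit, and 22 and 12 were under the UMI or gene minimum. They were singled out because a marker signal stood in data left out of the comparison, at a higher share in THP than in vehicle. Among all barcodes, 12123 of 13193 in THP and 10978 of 11584 in vehicle passed the filter. Failure was thus more frequent in THP over all barcodes too, and is not particular to those meeting the marker limits.

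Prss34 and Mcpt8, proteases of basophils, had ratios of opposite direction in 2 cell classes, a difference that was not tested. In the selected cells their log2 ratios were 4.41 and 4.18, and in cells over the Retnlg limit -5.79 and -5.63. In the selected THP cells 94.99% and 94.6% of their UMIs came from 5 cells. Without the cells with RNA of other lineages the ratio of Mcpt8 there was slightly negative. Over the Retnlg limit the genes stood at 1.25 and 0.62 CPM in THP and 123.5 and 79.5 CPM in vehicle. How many cells gave those UMIs was not counted, so a few cells may carry the values in that class too.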

How the results depend on the processing

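Each class rests on 1 library per treatment, so no setting measures variation between cultures. The share of selected cells in THP and vehicle was 1.98% and 5.67% at 10 p10k or more of Vcan and F13a1, 8.62% and 12.5% at 3 p10k or more, 6.38% and 11.2% with cells thinned to 5000 UMIs, and 6.51% and 12.7% without cells with neutrophil RNA, with THP lower each time. The last 2 settings, and leaving out cells with RNA of other lineages, were chosen after seeing the data. Higher and lower genes (86 and 198 as reported) numbered 192 and 1259 at 1.5-fold, 145 and 298 at 1 CPM or more, and 55 and 107 at 30 CPM or more. Lower genes numbered 81 with TMM or with RLE factors and 43 after length correction. The cytokine list lay 2.12 above all genes as reported, 2.53 with cells of both genes and 1.64 with equal weight per cell. The mitotic list lay at -0.10 as reported and 0.030 with equal weight to the 3 ranges. Of 42 called genes that the naming rule gives, 40 kept their direction in 13 alternatives. The exceptions were Timp1, at -0.84 with 3 p10k or more, and Mcpt8, at -0.078 with cells of both genes and -0.12 without other lineages. No paired analysis was possible because each group has 1 library.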
